A study of Caenorhabditis elegans with 8 samples.

Results

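The genes C32H11.3, C32H11.4, cld-1 (C32H11.9), dod-21 (C32H11.10) and dod-24 (C32H11.12) of the nematode Caenorhabditis elegans are neighbours on 1 cosmid clone of chromosome IV. They were chosen by the log2 difference of the triple mutant from hpl-1; hpl-2, which was the greatest for cld-1 among genes measured well in both, and the question was whether the neighbours moved with it. Of these 5 genes, 4 had a probe of their own name among the 20113 gene identifiers of the array, and each of them passed the scanner's test against background on all 8 arrays. dod-21 had none of its own name. The probe named for cld-1 lists both C32H11.9 and C32H11.10 in the array's annotation, so that cld-1 and dod-21 could not be told apart on it, and "cld-1" below stands for the signal of this shared probe. The probes of C32H11.3, C32H11.4 and dod-24 list 1 gene each, whereas 22.2% of the probes with a listed gene list more than 1.

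The name dod stands for downstream of daf-16. DAF-16 is the FOXO transcription factor that insulin signalling through the receptor DAF-2 and the kinases AGE-1 and AKT keeps out of the nucleus, and dod genes were named for responding to that pathway, some activated and others, such as dod-24, repressed by DAF-16. dod-24 is also known as a gene induced by bacterial infection in the intestine, where the p38 kinase pathway of NSY-1, SEK-1 and PMK-1 drives lectins, lysozymes and other secreted effectors. HPL-1 and HPL-2 are the heterochromatin protein HP1 homologues of the worm, and HIS-24 is a linker histone H1.

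Gene expression was measured on 8 single-colour Agilent arrays, 2 for each of 4 genotypes in an N2 background. The alleles were tm1624 of hpl-1, ok1024 of his-24 and tm1489 of hpl-2. The double mutants were hpl-1 his-24 and, with hpl-2, either hpl-2; his-24 or hpl-1; hpl-2. A triple mutant carried all 3 alleles. Each array held 600 ng of RNA from a pool of 80 to 100 whole L4 to young adult worms raised at 21°C, and no treatment was given. Neither wild type nor single mutant arrays were used here, so that every value below sets mutants against each other. In extracts of whole worms, fewer cells of a type and less RNA per cell cannot be told apart.

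The labels were first set against the targeted genes. The hpl-1 probe read -9.04 and -8.81 in the arrays labelled hpl-1; hpl-2 but between -0.65 and -0.30 on the other 6, including the 4 arrays labelled hpl-1 his-24 and triple. Whether the probe lies in a part of hpl-1 that the allele removes was not known, so that this signal cannot settle the labels. For hpl-1; hpl-2 the paper's phenotype table names another hpl-1 allele than its microarray table, which gives tm1624. Signals here are log2 intensities relative to the 75th percentile of each array. The his-24 probe was present only in hpl-1; hpl-2 (0.31 and 0.46) and at -8.61 or below on the other 6 arrays, as labelled, and hpl-2 probes were dimmer in the genotypes labelled hpl-2 but stayed well above background. Genotype names below are those of the labels, and the comparison of triple and hpl-1; hpl-2 in particular is between arrays that differed in the signal of both hpl-1 and his-24. Between 77.3% and 84.7% of probes were well above background per array. The 2 arrays of hpl-2; his-24, alone on slide 1 and scanned on a day of their own, correlated at r = 0.986 over the identifiers tested, with a SD of their log2 difference of 0.53, against 0.24 to 0.25 in the other genotypes.

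All 4 probes read higher on both triple arrays than on the other 6, as did 13.5% of all identifiers tested, but their order among the double mutants differed. cld-1 had the widest range of the 4. Its log2 signal was 2.75 and 2.57 in hpl-1 his-24, -1.88 and 0.39 in hpl-2; his-24, -2.66 and -2.54 in hpl-1; hpl-2, and 4.94 and 4.83 in the triple mutant (replicates 1 and 2 in each). No genotype overlapped another, as also for dod-24, C32H11.3 and C32H11.4. The share of all identifiers with this trait was not computed, but hpl-2; his-24 and hpl-1 his-24 alone did not overlap in 84.9% of them. In intensity units the cld-1 signals were, in the same order, 32714 and 33551, then 1277.6 and 6059.6, then 1342.3 and 893.3, then 227940 and 205510. No member spot was saturated, and the 2 spots of a member probe on an array differed by at most 0.195 on the log2 scale. The lowest genotype mean for cld-1 was that of hpl-1; hpl-2, but its distance of 1.86 from the mean of hpl-2; his-24 was smaller than the 2.27 between the replicates of the latter, so that the order of these was not resolved. The steps from hpl-2; his-24 to hpl-1 his-24 (3.40) and from there to the triple (2.23) were each wider than the wider replicate range on either side, 2.27 and 0.18.

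dod-24 had a different order. Its log2 signal was 2.45 and 2.49 in hpl-1 his-24, 0.52 and 0.99 in hpl-2; his-24, 1.95 and 2.05 in hpl-1; hpl-2, and 4.12 and 4.09 in the triple mutant. Its lowest genotype was thus hpl-2; his-24. The mean of hpl-1; hpl-2 lay only 0.47 below hpl-1 his-24, a step that was still wider than the 0.10 between the replicates. The 4 genotypes did not overlap, a trait whose share over all identifiers was not computed.

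C32H11.3 and C32H11.4 were nearly alike in their profiles over the arrays. C32H11.3 read -0.84 and -0.63 in hpl-1 his-24, -0.51 and -0.01 in hpl-2; his-24, -1.19 and -1.15 in hpl-1; hpl-2, and 2.72 and 2.74 in the triple mutant. C32H11.4 read -0.19 and -0.07 in hpl-1 his-24, 0.34 and 0.75 in hpl-2; his-24, -0.43 and -0.35 in hpl-1; hpl-2, and 3.49 and 3.48 in the triple mutant. For both genes the double mutants were ordered with hpl-1; hpl-2 lowest, hpl-1 his-24 next and hpl-2; his-24 highest, and the distance from the highest double mutant to the triple was far wider than the order among the doubles (2.99 for C32H11.3 and 2.94 for C32H11.4). For C32H11.3 the step of 0.47 from hpl-1 his-24 to hpl-2; his-24 was smaller than the widest replicate range of 0.50.

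**Figure D1:**
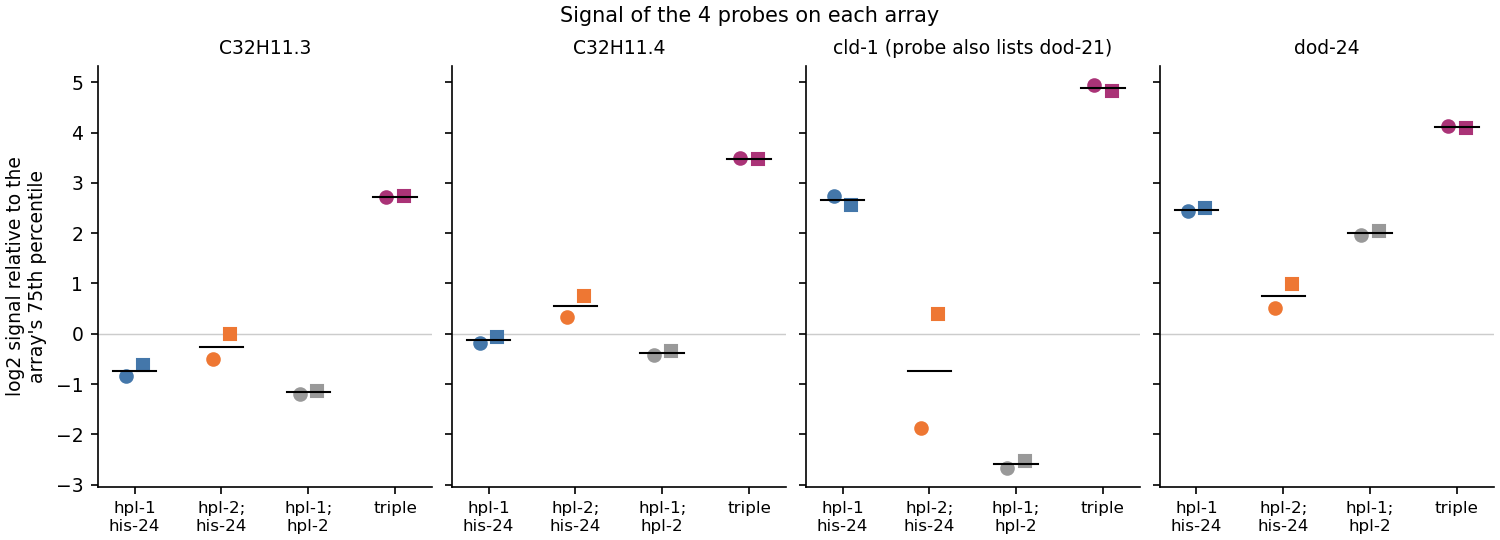
Log2 signal of the 4 probes, relative to the 75th percentile of each array (y axis), in the 4 genotypes (x axis); circles are replicate 1, squares replicate 2 and lines the genotype means. In every panel the triple mutant is highest, while hpl-2; his-24 lies above hpl-1 his-24 for C32H11.3 and C32H11.4 and below it for cld-1 and dod-24, with replicates of -1.88 and 0.39 for cld-1.

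The pair of genotypes that played no part in choosing the genes was hpl-2; his-24 relative to hpl-1 his-24, and here the genes did not move together. cld-1 and dod-24 were lower in hpl-2; his-24, whereas C32H11.3 and C32H11.4 read slightly higher. cld-1 fell by 3.40 on the log2 scale (10.6-fold, SE 0.64, limma adjusted p = 0.00406 over 17092 identifiers), and dod-24 fell by 1.72 (3.29-fold, SE 0.16, limma adjusted p = 0.00019). C32H11.4 was 0.68 higher (SE 0.14, limma adjusted p = 0.00671) and C32H11.3 0.47 higher (SE 0.17, limma adjusted p = 0.0458), both below the log2 difference of 1.5 that a call required in addition to an adjusted p under 0.05. C32H11.3 did not pass the adjusted p in the fit of the 4 arrays compared (limma adjusted p = 0.128). For each of the 4 probes, both arrays of hpl-2; his-24 lay on the same side of both arrays of hpl-1 his-24, as they did for 84.9% of all identifiers tested. Thus 2 of 4 probes were called lower and 0 higher, where 9.72% of all identifiers tested were called lower, 6.82% higher and 16.5% in either direction. By adjusted p alone 2 were higher and 2 lower, where 33.5% of all identifiers were higher and 32.1% lower. The median difference of the 4 probes was -0.62, beside 0.03 over all identifiers tested. It fell between -1.72 for dod-24 and 0.47 for C32H11.3 and so described none of the probes. The call of dod-24 and the size for cld-1 rested on replicate 1 of hpl-2; his-24: without it dod-24 was -1.48, short of the 1.5 required, and cld-1 -2.26, while without replicate 2 cld-1 was -4.54. Each genotype of this comparison lay on slides of its own, so that slide, scan day and genotype cannot be told apart.

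In the comparison that chose the genes, triple against hpl-1; hpl-2, the values are a description and were not tested. cld-1 was 7.48 higher in the triple mutant on the log2 scale (179-fold, SE 0.64), C32H11.3 was 3.90 higher (14.9-fold, SE 0.17), C32H11.4 was 3.87 higher (14.7-fold, SE 0.14) and dod-24 was 2.10 higher (4.30-fold, SE 0.16). The SE of cld-1 comes from the spread shared by all genotypes, which for this probe lay mainly between the replicates of hpl-2; his-24. Their median was 3.89, beside 0.02 over all identifiers. Of all identifiers tested, 2.67% met the call rule as higher in this comparison. Among genes that met it with a signal over background on each of the 4 arrays, cld-1 was at the top, and the next were C07G1.7 at 5.99 and F58E2.2 at 5.33. The triple and hpl-1; hpl-2 arrays shared slides 2 and 5, and the difference within a slide varied little: for cld-1 it was 7.49 on slide 2 and 7.48 on slide 5, for dod-24 2.13 and 2.07, for C32H11.3 3.92 and 3.87, and for C32H11.4 3.91 and 3.84.

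The other pairs of genotypes, which share these arrays, showed how unevenly the genes were displaced. Against hpl-1 his-24, the triple mutant was 3.46 higher for C32H11.3 and 3.62 higher for C32H11.4, but only 2.23 higher for cld-1 and 1.63 higher for dod-24. Against hpl-2; his-24 the order was turned, with cld-1 5.63 and dod-24 3.35 higher and C32H11.3 and C32H11.4 at 2.99 and 2.94. The difference of hpl-1; hpl-2 from hpl-1 his-24 set cld-1 apart from the other 3: it was -5.26 (SE 0.64), while dod-24 was at -0.47 (SE 0.16), C32H11.3 at -0.43 (SE 0.17) and C32H11.4 at -0.26 (SE 0.14). In hpl-2; his-24 relative to hpl-1; hpl-2, dod-24 was the only one lower, at -1.25, with cld-1 at 1.86, C32H11.4 at 0.93 and C32H11.3 at 0.91. None of these differences was tested.

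**Figure D2:**
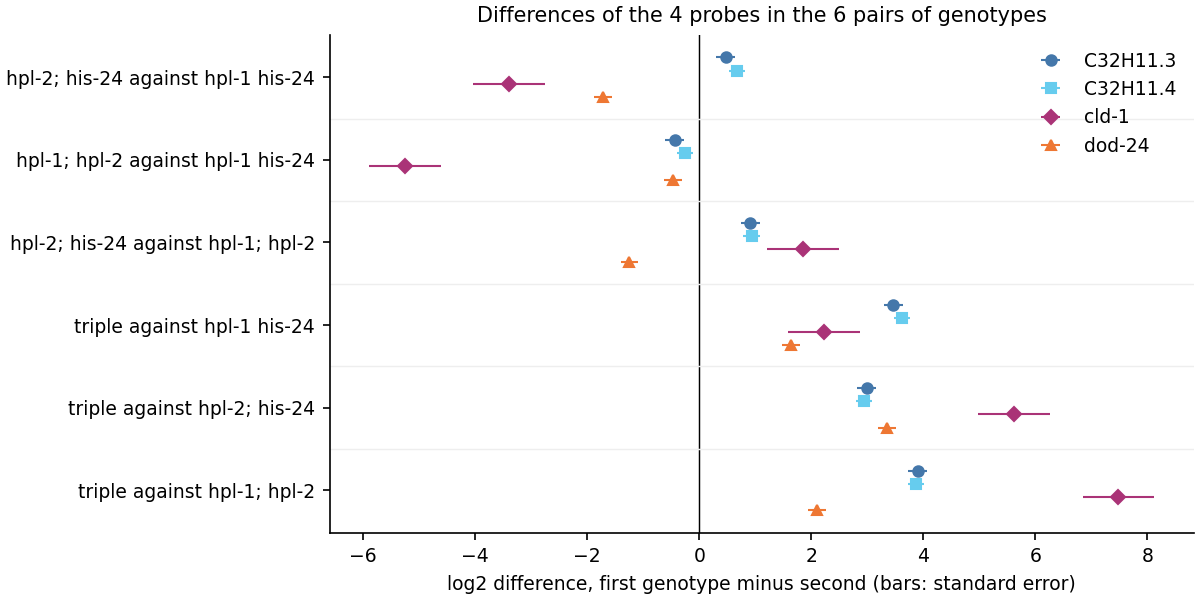
Log2 difference of the 4 probes (x axis, first genotype minus second, bars are standard errors of the limma fit) in each of the 6 pairs of genotypes (y axis). C32H11.3 and C32H11.4 lie side by side in every pair, whereas cld-1 ranges from -5.26 to 7.48 and dod-24 from -1.72 to 3.35.

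How alike the profiles were is given by Pearson's r of the log2 signals, as a description over arrays that fall into 4 genotypes of 2. C32H11.3 and C32H11.4 had r = 0.998 over the 8 arrays and 0.971 over the 6 arrays without the triple mutant, an alternative added after the data were seen. The other correlations rested on the triple arrays. cld-1 and dod-24 went from 0.792 to 0.449 without them, cld-1 and C32H11.3 from 0.786 to 0.386, and cld-1 and C32H11.4 from 0.754 to 0.174. dod-24 went from 0.755 to -0.584 with C32H11.3 and from 0.733 to -0.749 with C32H11.4.

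Some genes elsewhere had a higher r with the cld-1 probe than its neighbours did. A search over many identifiers makes this likely, and it was not tested. Among 2265 identifiers well above background on at least 4 arrays whose genotype means spanned at least 2 log2 units, dod-24 was at position 140 for likeness to cld-1, C32H11.3 at 145 and C32H11.4 at 185. The 6 most alike were srlf-18 (r = 0.989), the UDP-glucuronosyltransferase gene ugt-62 (0.986), M176.10 (0.985), W01C9.2 (0.985), Y51A2D.8 (0.983) and the C-type lectin gene clec-265 (0.978). srlf-18 and M176.10 were not well above background in hpl-1; hpl-2. The other 4 were so on all 8 arrays, and their means were ordered, from low to high, hpl-1; hpl-2, hpl-2; his-24, hpl-1 his-24, triple, of which the first step was not resolved for cld-1. clec-265, for example, had genotype means of -0.77, -0.10, 2.29 and 2.77 in that order, and ugt-62 of -0.30, 0.52, 1.17 and 1.74.

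The genes that lie between and beside the members on the cosmid did not stand out in the triple mutant as the members did. The members were chosen with earlier results of these arrays known, so that this contrast is a description and no test. In the RefSeq order of the WBcel235 assembly the run is irg-6, srz-15, C32H11.3, C32H11.4, srlf-4, srlf-5, the pseudogene C32H11.7, srlf-6, cld-1, dod-21, C32H11.11, dod-24 and dct-19. By the array's own positions, whose genome build is not given in the sources used here, the probes of C32H11.3, C32H11.4 and dod-24 lay at -14.94, -11.95 and 5.11 kb from that of cld-1, negative values being at lower coordinates. The positions of cld-1 and dod-24 are written from high to low, and those of C32H11.3 and C32H11.4 from low to high. Of 7 other C32H11 genes with a probe, 6 were tested, and in hpl-2; his-24 relative to hpl-1 his-24 1 was called higher and 0 lower.

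C32H11.11, whose probe lies between those of cld-1 and dod-24 and also lists srlf-6, read -4.36 and -4.30 in hpl-1 his-24, -10.37 and -4.59 in hpl-2; his-24, -4.29 and -4.40 in hpl-1; hpl-2, and -4.29 and -4.12 in the triple mutant. Apart from replicate 1 of hpl-2; his-24, the same array in which cld-1 was lower than in its replicate, its signal was nearly the same across genotypes, with 0.14 between triple and hpl-1; hpl-2. Its difference of -3.15 in the tested comparison did not pass (limma adjusted p = 0.128). srlf-5 was likewise dark only on that array, at -10.48 against -6.74 in the other replicate (difference -2.69, limma adjusted p = 0.0609).

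dct-19, which lies beyond dod-24, was highest where C32H11.3 and C32H11.4 were lowest. cld-1 had its lowest mean there too, not resolved from hpl-2; his-24. dct-19 read -1.97 and -1.88 in hpl-1; hpl-2 and between -6.01 and -4.11 on the other 6 arrays. Its difference from hpl-1; hpl-2 to triple was -2.22, and it did not differ past the threshold in the tested comparison (0.18, limma adjusted p = 0.412). irg-6, an infection response gene at the other end of the cosmid, was lowest in hpl-1; hpl-2 (-1.62 and -1.47), where cld-1 also had its lowest mean, but highest in hpl-2; his-24 (1.21 and 1.01), with the triple between (-0.12 and -0.54). It was 0.77 higher in hpl-2; his-24 than in hpl-1 his-24 (limma adjusted p = 0.00695), below the size required for a call. Its probe also lists K08D8.5, and the probe of K08D8.5 lists irg-6. The chemoreceptor gene srz-15 was above background only in hpl-2; his-24, the genotype through which alone it passed the filter. Its call as higher than hpl-1 his-24 used values below background. The bound set by the dimmest probes above background was at least 1.22-fold, short of the size required, so that its call cannot be relied on. The pseudogene C32H11.7, whose probe also lists Y38F2AL.6, had a difference of 0.02 (limma adjusted p = 0.864), and srlf-4 did not exceed background on any array.

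Over a window of 100 kb on either side of the cld-1 probe, 40 probes were tested, lying from -94.8 to 54.7 kb. On the side of dod-24 the tested probes thus did not reach the end of the window. Without the members 36 remained. Of these 36, 3 were called higher, srz-15 among them, and 6 lower in hpl-2; his-24 relative to hpl-1 his-24, with a median of 0.02. The shares called over all identifiers tested were 6.82% higher and 9.72% lower. In triple against hpl-1; hpl-2, 7 of the 36 were more than 1.5 higher, against 2.80% of all identifiers tested, and all 7 lay between 20 and 50 kb from cld-1 on the side of dod-24. This stretch was singled out after its values were seen, and it held 10 tested probes. It contains F55G11.6, F55G11.7, F55G11.8, dod-22, 1 probe with no gene name, dod-17 and K10D11.2. F55G11.6 and F55G11.7 were not well above background in hpl-1; hpl-2 and were at least 4.22-fold and at least 10.4-fold higher in the triple mutant. For the other 5 the log2 differences were 4.27, 2.62, 2.33, 1.85 and 2.35 in that order. Of these, F55G11.6, dod-22, dod-17 and K10D11.2 had a higher mean in another genotype than in the triple mutant. dod-22 read -2.82 and -2.57 in hpl-1; hpl-2 but -0.06 and -0.09 in the triple, 0.00 and 0.37 in hpl-2; his-24 and 0.55 and 0.57 in hpl-1 his-24, so that its difference came from a low hpl-1; hpl-2. F55G11.8 was highest in the triple (mean 1.25) and lowest in hpl-1; hpl-2 (mean -3.02), with hpl-1 his-24 at 0.18 and hpl-2; his-24 at -0.71, the order of the cld-1 means. Between cld-1 and this stretch, F55G11.1 was at 0.36 and abt-3 at -0.11 in the same comparison.

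**Figure D3:**
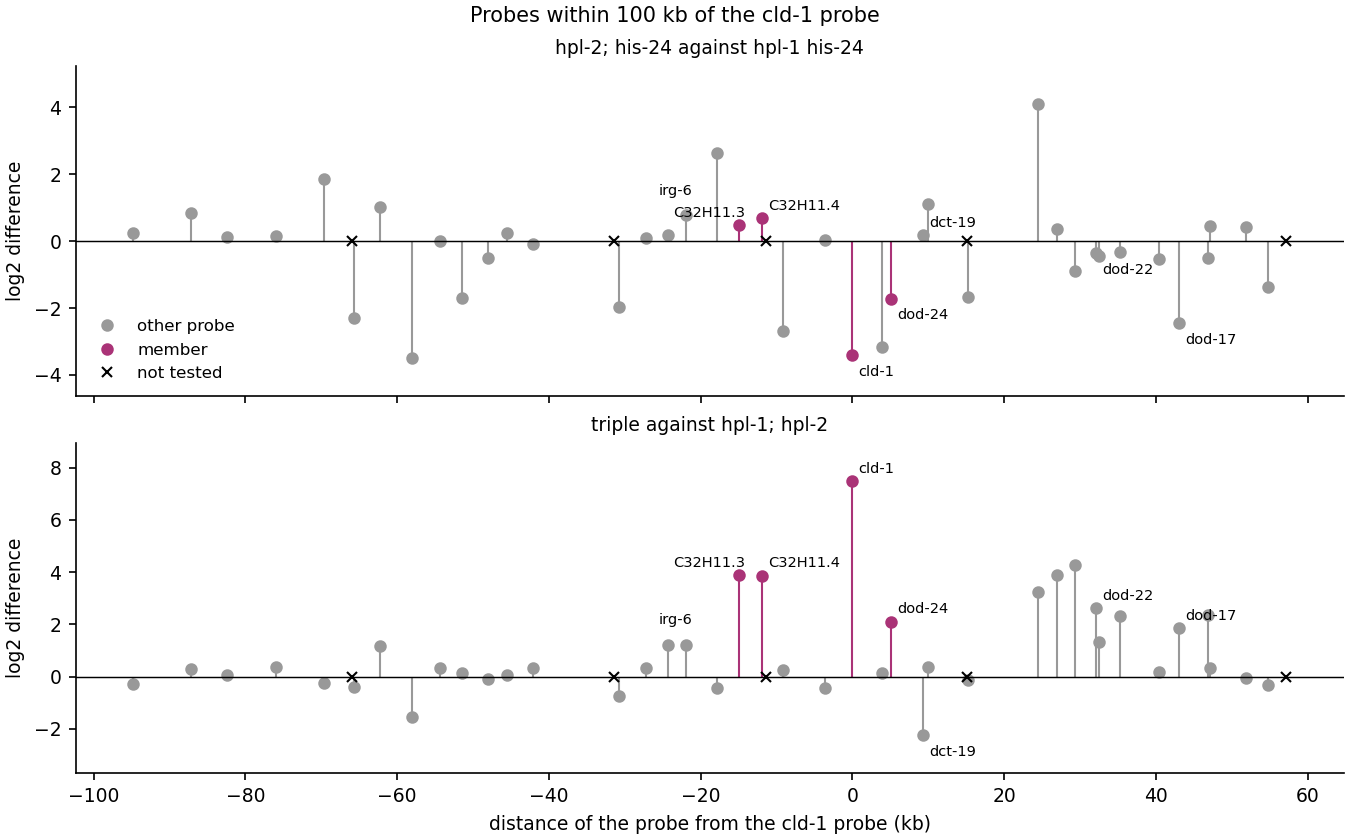
Log2 difference of each probe (y axis) against its distance from the cld-1 probe (x axis, kb), in hpl-2; his-24 relative to hpl-1 his-24 (top) and triple against hpl-1; hpl-2 (bottom, not tested); crosses at 0 are probes too dim to be tested, and F55G11.6 and F55G11.7 are drawn at their fitted values. The bottom panel is the comparison by which the members were chosen. There they stand above probes near 0, dct-19 is at -2.22, and a further stretch up to K10D11.2 lies mostly above 0. In the top panel cld-1 and dod-24 point down and C32H11.3 and C32H11.4 up.

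The dod genes outside the C32H11 run, among them dod-22 and dod-17 of the stretch just described, are relatives by name. Of 8, 1 was called higher and 1 lower in hpl-2; his-24 relative to hpl-1 his-24, beside 6.82% and 9.72% of all identifiers tested. dod-23 read 3.80 and 4.21 in hpl-2; his-24 against 1.49 and 1.86 in hpl-1 his-24 and was 2.33 higher (limma adjusted p = 0.000136). dod-17 read -2.05 and -1.65 against 0.52 and 0.69 and fell by 2.45 (limma adjusted p = 3.29e-05), in the direction of dod-24. The median of the 8 was 0.02. dod-20 was the only one of them highest in the triple mutant, at -1.42 and -1.51 there and between -3.52 and -2.67 elsewhere. In triple against hpl-1; hpl-2 dod-23 was at -1.89, opposite to dod-24. The study tabulated dod-24, dct-19 and dod-23 among genes changed in these samples, so that their differences here are not independent evidence. cld-9, the only other cld gene with a probe, was at -0.30 in the tested comparison (limma adjusted p = 0.189) and 1.01 between triple and hpl-1; hpl-2.

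A list of regulators of the insulin and p38 pathways was set beside the members. The list held the insulin receptor daf-2, the kinases age-1, akt-1 and akt-2, the transcription factors daf-16 and pqm-1, the p38 pathway genes tir-1, nsy-1, sek-1 and pmk-1 with their phosphatase vhp-1, and further factors of the infection response. Of 26 identifiers of its 18 genes, 0 were called higher and 1 lower in hpl-2; his-24 relative to hpl-1 his-24, where 16.5% of all identifiers were called in either direction. By limma's adjusted p alone 10 were higher and 7 lower (65.6% of all identifiers passed this in either direction). The called gene was sta-2, a STAT factor of the epidermal response to infection, which read -4.50 and -4.16 in hpl-2; his-24 against -0.33 and -0.03 in hpl-1 his-24 (difference -4.15, limma adjusted p = 7.13e-06). daf-2 was at -0.48 (limma adjusted p = 0.0178) and pmk-1 at 0.22 (limma adjusted p = 0.134). The median of the list was 0.15 here and 0.17 between triple and hpl-1; hpl-2.

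Of 13 infection response effectors, 2 were called higher and 1 lower in hpl-2; his-24, beside 6.82% and 9.72% of all identifiers tested. sysm-1 (T24B8.5), a target of PMK-1, read 1.74 and 2.23 against -2.01 and -1.84 in hpl-1 his-24, a difference of 3.91 (limma adjusted p = 1.48e-05), and the lysozyme gene lys-7 was 2.57 higher (limma adjusted p = 0.00052). The lectin gene clec-60 fell by 2.14 (limma adjusted p = 8.78e-05). In their genotype order, 8 of 13 effectors had their lowest mean in hpl-1; hpl-2, against 15.8% of all identifiers tested, and 1 of 13 was highest in the triple, against 21.4%. A lowest mean in hpl-1; hpl-2 was not particular to effectors. It was seen in 5 of 9 identifiers of genes activated by DAF-16 and 4 of 8 other dod genes. The same held for 11 of 26 identifiers of the regulators and 4 of 6 of neuron markers, but for 0 in the other marker lists. Of the members, 3 of 4 had their lowest mean in hpl-1; hpl-2, the exception being dod-24, and for cld-1 it was not resolved from hpl-2; his-24. irg-5 (F35E12.5), for example, read 0.57 and 0.61 in hpl-1; hpl-2 and between 3.28 and 3.92 on the other 6 arrays.

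Of 9 genes known to be activated by DAF-16, 8 had a probe. In hpl-2; his-24 relative to hpl-1 his-24, 1 of their 9 identifiers was called higher, the small heat shock gene hsp-16.2 (2.32, limma adjusted p = 1.55e-05), and 3 lower. Over all identifiers tested 6.82% were called higher and 9.72% lower. The 3 lower were the metallothionein gene mtl-1 (-3.45, limma adjusted p = 0.000326), the small heat shock gene hsp-12.6 (-4.49, limma adjusted p = 2.36e-05) and scl-1, at least 9.05-fold lower, with a signal not well above background in hpl-2; his-24. scl-1 passed the filter only through hpl-1 his-24, where it was high. The superoxide dismutase gene sod-3 was at -0.42 (limma adjusted p = 0.064). Between triple and hpl-1; hpl-2, the 8 identifiers other than scl-1, which was not well above background in either, had differences above 0 with a median of 0.51. The paper names hsp-12.6, hsp-16.2 and sod-3 among genes changed from wild type in both of these genotypes. The values of these genes here are thus not independent evidence.

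**Figure D4:**
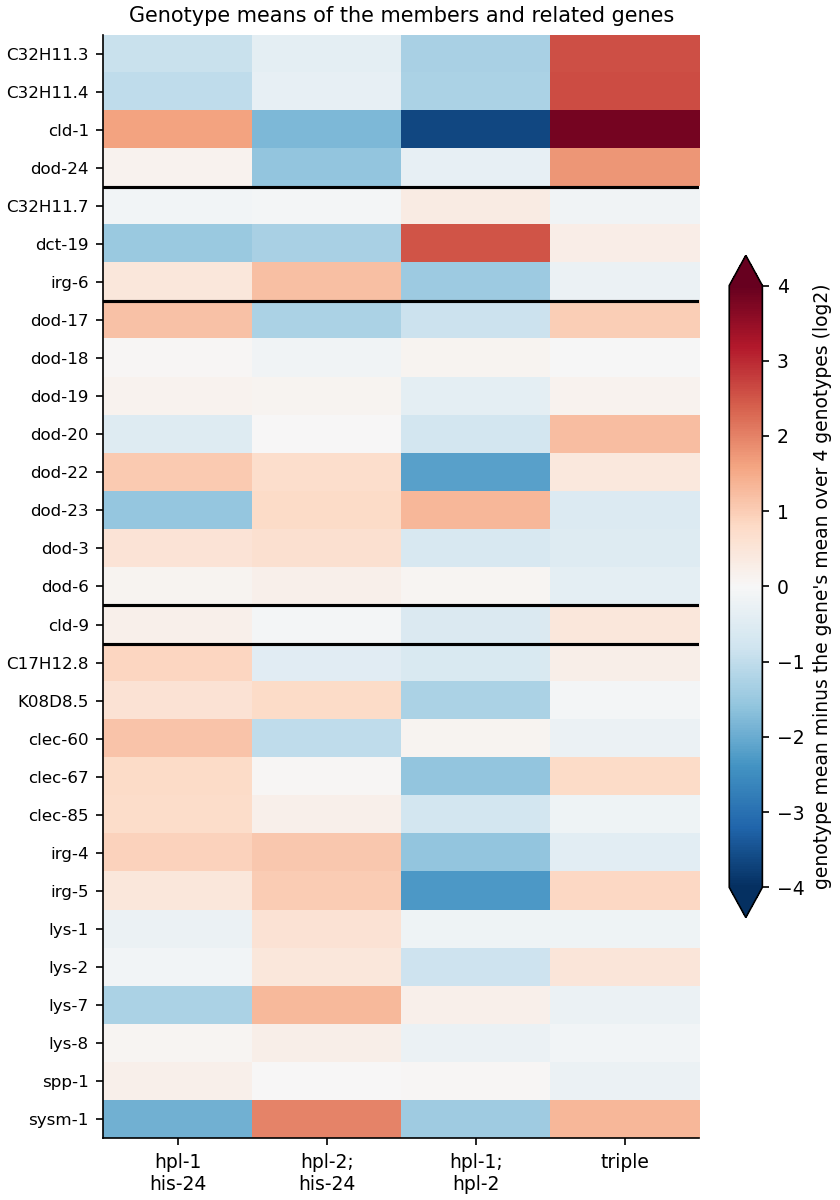
Genotype means (columns) of the members, the other C32H11 genes, dod genes, cld-9 and infection response effectors that were well above background on all 8 arrays (rows, groups divided by black lines), each minus the gene's mean over the 4 genotypes, on the log2 scale. The members are red in the triple mutant, where 1 of 13 effectors is highest, and many effectors share with cld-1 a blue cell in hpl-1; hpl-2.

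Markers of tissues and of stage moved between the same genotypes. In the tested comparison 32.1% of all identifiers were lower and 33.5% higher by adjusted p, and 9.72% were called lower and 6.82% higher. In hpl-2; his-24 relative to hpl-1 his-24, all 5 epidermis markers were lower by adjusted p and 4 were called. Their summed signal, in units of the 75th percentile, was 30.4 to 49.98 against 71.3 to 80.1. All 5 sperm markers tested were lower, 2 of them called, with sums of 4.03 to 7.97 against 13.1 to 14.1. Of 11 identifiers of intestine markers, 7 were lower and 3 called, among them pept-1 at -2.92 and ifb-2, with sums of 124 to 135 against 185 to 193. cld-1 and dod-24 moved in the direction of these markers, and C32H11.3 and C32H11.4 opposite to it; the part of tissue makeup or stage in their differences was not tested. In the triple mutant the intestine sum was 115 on both arrays, below the 125 to 160 of hpl-1; hpl-2, while all 4 members were higher in the triple. The epidermis sums of triple (57.2 to 62.2) lay within the range of hpl-1; hpl-2 (51.1 to 71.0), and the sperm sums were 15.07 to 16.16 against 13.4 to 15.6. Such sums are led by the brightest markers, col-19 for epidermis and asp-1 for intestine. By identifier, 3 epidermis markers were higher in the triple than in hpl-1; hpl-2 and 2 lower, with a median of 0.36. Of the intestine identifiers 2 were higher and 9 lower, with a median of -0.36. None of this was tested. All 7 identifiers of yolk markers read below hpl-1; hpl-2 in the triple (sums of 177 to 226 against 237 to 304), as were all 6 of oocyte markers (110 to 115 against 121 to 145), differences that were not tested and whose part in those of the members was not tested. Yolk and oocyte markers had 0 calls in the tested comparison at either rule. Of muscle markers 1 identifier was higher and 1 lower by adjusted p with 0 called, germline markers had 2 higher and 0 called, and neuron markers 3 higher and 1 lower with 0 called.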

How the data were processed

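The authors extracted single-colour spot intensity values with Agilent Feature Extraction 9.5.3.1, per the file headers; the deposited value table holds log2 values of the same arrays (normalized by the authors with limma, per the labels) and served as an alternative. Processed intensity was divided by the 75th percentile of each array and taken as log2; spots flagged as outliers were left out, the spots of a probe averaged and the brightest probe kept per identifier. Tested were the 17092 of 20113 identifiers that exceeded background on both arrays of some genotype, with limma 3.58.1 in R 4.3.3, all 8 arrays in the fit, two-sided, with Benjamini-Hochberg adjustment; a call needed an adjusted p under 0.05 and a log2 difference beyond 1.5. The number of arrays, 2 per genotype, limits the precision. An exact permutation test of 2 against 2 arrays cannot go below p = 0.333. The limma p-values measure the spread between arrays of a genotype, which held separate pools of worms. These arrays shared slide 1 in hpl-2; his-24 and lay on different slides in each other genotype. A shift between scan days is not in that spread, as the arrays of a genotype were scanned on the same day.

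Named were the 5 members, the other C32H11, dod and cld genes, the targeted genes, the 6 identifiers most like cld-1 and fixed lists of regulators, effectors and markers. Members and lists were chosen with earlier results of these data known; only hpl-2; his-24 relative to hpl-1 his-24, whose arrays the choice did not use, was tested. Symbols and gene order came from RefSeq (18124 of 19441 loci matched). The fit was tested on simulated data. Alternatives were the normalization, background, filter, probe rule, arrays, blocks and replicates left out.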

Additional observations from a re-analysis of the deposited data

How the results depend on the processing

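In hpl-2; his-24 relative to hpl-1 his-24, 2 member probes were called in every alternative run except adjusted p alone (4) and when a replicate was left out (1 to 2, the 1 without hpl-2; his-24 replicate 1). The count of genes called, 2826, became 1698 with normexp background, 1618 with the authors' value table, 11218 by adjusted p alone, 4233 with no filter on dim probes, and 2674 to 3138 with a replicate left out; the share higher went from 41.2% to 27.5% with no filter and to 49.1% with quantile normalization. With a replicate left out, the difference was -4.54 to -2.26 for cld-1, -1.95 to -1.48 for dod-24 and 0.47 to 0.88 for C32H11.4. With only the 4 arrays compared, the limma adjusted p was 0.0311 for cld-1, 0.00577 for dod-24 and 0.0385 for C32H11.4. These differences kept their sign in all alternatives run, and an adjusted p under 0.05 where both genotypes compared kept 2 arrays. That of C32H11.3 kept its sign but missed this threshold with only the 4 arrays compared (adjusted p = 0.128) and in 7 of 8 fits with a replicate left out (up to 0.199). Where a genotype was left with 1 array, that array was assumed to vary like the others. The cause of these changes was not tested.

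The median of the members in triple against hpl-1; hpl-2, 3.89, was 4.03 with quantile normalization, 4.14 with the authors' value table and 3.85 to 3.92 with a replicate left out. Genes meeting the call rule there, 673, became 362 with normexp background, 348 with the authors' value table and 352 with probes well above background on all 8 arrays. The replicate numbers did not pair the samples (r of replicate differences 0.01 for the tested pair); the replicate block gave 2 members and 2828 genes called, a median of -0.62, and changed no call of a member. For triple and hpl-1; hpl-2 that r was -0.30, and a crossed pairing, which equals the shared slides and was added after seeing the data, gave 701 genes, against 695 in the same 4 arrays without a block.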
